A study of Mus musculus with 36 samples.

Results

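The 10 imprinted growth genes H19, Meg3, Rian, Mirg, Dlk1, Peg3, Plagl1, Mest, Grb10 and Ndn were taken by name from a table of read counts for 55487 genes in primary mouse embryonic fibroblasts (MEFs). All 10 passed the filter on low counts and belong to the 15489 genes that were tested. The table holds 36 RNA-seq libraries of MEFs from mid-gestation embryos, kept for 5 h in vehicle (solvent) or in 1 µM dexamethasone (Dex), a synthetic ligand of the glucocorticoid receptor (GR). The cells were GRwt/wt, GRD/D (a missense change in the dimer interface of the DNA-binding domain), GRL/L (a missense change in the ligand-binding domain), GRD+L/D+L (both changes) or GRko/ko (no functional receptor). Every genotype had 3 vehicle and 3 Dex libraries except GRwt/wt, which had 3 of each in run 1, with GRD/D, GRD+L/D+L and GRko/ko, and 3 of each in run 2, with GRL/L. The design gives 3 cultures per genotype, each from a different mouse, and n = 3 libraries in every group below unless stated. The strain label is FVB/NJ throughout, whereas the methods describe the mice bred for GRko/ko as 129 Sv. The D+L line descends from 1 founder pup, and MEF cultures are mixed outgrowths of the embryo body rather than 1 cell type. In such bulk samples, fewer cells of a type and less RNA per cell cannot be told apart.

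An imprinted gene is transcribed mainly from the copy inherited from 1 parent, under the control of DNA methylation laid down in the germ line. Many such genes set the growth of the embryo, and their transcripts are abundant in embryonic mesenchyme and are reduced in most tissues after birth. Dlk1 (a transmembrane relative of Notch ligands), Peg3 (a zinc-finger protein), Plagl1 (a zinc-finger transcription factor), Mest (a hydrolase-like protein) and Ndn (necdin, a growth suppressor of the MAGE family) are transcribed mainly from the paternal copy. The non-coding RNAs H19, Meg3, Rian and Mirg come from the maternal copy, as does Grb10, an adaptor that dampens insulin and IGF receptor signalling, outside the nervous system. Dlk1, Meg3, Rian and Mirg form 1 imprinted cluster, in which Dlk1 is transcribed from the opposite parental copy to the others.

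In the mm10 build (GENCODE M21 annotation), the cluster covered 296.6 kb of chromosome 12, with Dlk1 at chr12:109452823-109463336, Meg3 at chr12:109541001-109571726, Rian at chr12:109603940-109661716 and Mirg at chr12:109729764-109749460, all on the plus strand. The others lay apart from it, with H19 at chr7:142575529-142578143 (minus strand), Peg3 at chr7:6703892-6730431 (minus), Ndn at chr7:62346569-62350262 (plus), Mest at chr6:30723547-30748465 (plus), Plagl1 at chr10:13060504-13131694 (plus) and Grb10 at chr11:11930508-12038683 (minus). Counts per gene come from exons. Mest shared 912 of its 3945 exon bases (23.1%) with Copg2, a coat protein gene on the opposite strand, and Meg3 shared 1228 of 18089 with Gm26906. The strand setting of the counting is not given in the sources used here, so reads from these shared stretches cannot be assigned to 1 of the genes of a pair.

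Several of these transcripts are hosts of microRNAs (miRNAs), which repress mRNAs through the seed at bases 2 to 8 of the mature strand. RefSeq mature miRNAs on the same strand lay within H19 (2), Meg3 (3), Rian (6), Mirg (26 with 25 different seeds) and Mest (2). The count table measures the host genes and not the mature miRNAs. The strands below are shown because their hosts differed most between cultures (H19, Mest) or fell after Dex (Meg3, Rian, Mirg), with the seed in capitals. The first pair is exonic in H19, the second is intronic in Mest, and the last pair, both intronic in Mirg, shares its seed.
mmu-miR-675-5p: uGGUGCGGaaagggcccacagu
mmu-miR-675-3p: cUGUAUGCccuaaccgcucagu
mmu-miR-335-5p: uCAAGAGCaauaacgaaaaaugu
mmu-miR-335-3p: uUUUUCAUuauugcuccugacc
mmu-miR-770-5p: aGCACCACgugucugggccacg
mmu-miR-370-3p: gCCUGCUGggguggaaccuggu
mmu-miR-453: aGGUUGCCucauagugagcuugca
mmu-miR-496a-5p: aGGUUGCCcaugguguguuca

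RefSeq promoter windows (300 bases, from 250 before to 50 after a transcript start, mm10) were held for 9 of the 10 genes, 13 windows in all, and none for H19. The letters AGAACA or, on the other strand, TGTTCT are 1 of the 2 inverted hexamers of a glucocorticoid response element. They occurred in 2 of the 13 windows (15.4%) against 19% of the 32817 windows of all genes. The windows that held them belonged to Mirg, with 2 matches at chr12:109734731-109735030 (inside the GENCODE span of the gene), and Rian, with 1 match at chr12:109603695-109603994. They are printed here, plus strand, with the matches in capitals, because both genes fell after Dex in GRwt/wt cultures. Meg3 also fell there, and its windows held 0 matches. A match of these letters is a description of the window and not evidence of binding.
Mirg: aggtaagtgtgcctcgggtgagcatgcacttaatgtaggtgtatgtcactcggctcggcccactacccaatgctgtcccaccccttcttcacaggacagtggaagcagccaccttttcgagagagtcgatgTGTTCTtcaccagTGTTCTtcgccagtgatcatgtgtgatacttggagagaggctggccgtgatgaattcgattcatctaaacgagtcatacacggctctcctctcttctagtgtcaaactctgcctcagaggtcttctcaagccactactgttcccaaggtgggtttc
Rian: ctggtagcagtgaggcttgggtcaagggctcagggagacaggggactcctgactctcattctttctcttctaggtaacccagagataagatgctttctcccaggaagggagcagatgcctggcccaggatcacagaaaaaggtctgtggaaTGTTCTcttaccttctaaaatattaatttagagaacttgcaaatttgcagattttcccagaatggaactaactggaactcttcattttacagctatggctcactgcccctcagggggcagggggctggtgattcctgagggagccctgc

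Libraries held 15280166 to 28662608 counts and were deeper in run 2 (median total 24827607.5) than in run 1 (16579210.5). Levels are CPM, read counts normalised to TMM-scaled library sizes. Differences are log2 fold changes from 1 edgeR quasi-likelihood model of all libraries. They were called at a Benjamini-Hochberg adjusted p-value of at most 0.05 over the 15489 genes. The model fits 1 run term over both treatments and 1 Dex change over both runs of GRwt/wt. A fitted run or genotype difference therefore need not equal the ratio of the vehicle CPM printed beside it. The targeted gene Nr3c1, which encodes GR, averaged 70.2 CPM in vehicle-treated GRwt/wt of run 1 and 97.0 in run 2, against 16.6 in GRko/ko and 78.2 to 103 in the 3 point mutants. Counts of Xist ran from 2464 to 5468 in the GRwt/wt (run 1) and GRD/D libraries and from 0 to 236 in all others, where the Y-linked genes Ddx3y, Eif2s3y, Kdm5d and Uty summed to between 2145 and 8432. The GRwt/wt cultures of the 2 runs thus differed in embryo sex as well as in run. By these markers all libraries of a genotype within a run were of the same sex, and replicate numbers showed no clear pairing of vehicle with Dex libraries (below). Whether the libraries of a group come from different mice was not tested, so n counts libraries. Replicate libraries differed in all groups by more than counting error, with a mean chi-square per gene of 1.58 to 9.79 in most pairs. It was higher for vehicle libraries 2 and 3 of GRD/D (26.5) and for Dex library 4 of GRwt/wt in run 2 against 5 and 6 (16.4 and 19.5, with 1.78 between 5 and 6). All 10 fibroblast markers on the list were above 1 CPM in every vehicle group. Vehicle libraries also carried skeletal muscle, cartilage and macrophage transcripts in unequal amounts, given beside the results below.

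For H19, Dlk1, Peg3, Plagl1 and Mest, GRwt/wt cultures differed more between the runs than any mutant did from GRwt/wt in vehicle (plot of the levels in each library), whereas for the other 5 genes the run and the largest genotype differences were of like size. In GRwt/wt, all 10 genes differed between run 2 and run 1, where 80.5% of all tested genes did, and 8 were higher and 2 lower in run 2. Of the 10, 5 were at least 2-fold higher, against 13% of all tested genes. Their median log2 difference was 1.08, against 0.09 for all tested genes. The 10 genes were chosen with earlier results of these data known, so these shares are a description.

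**Figure D1:**
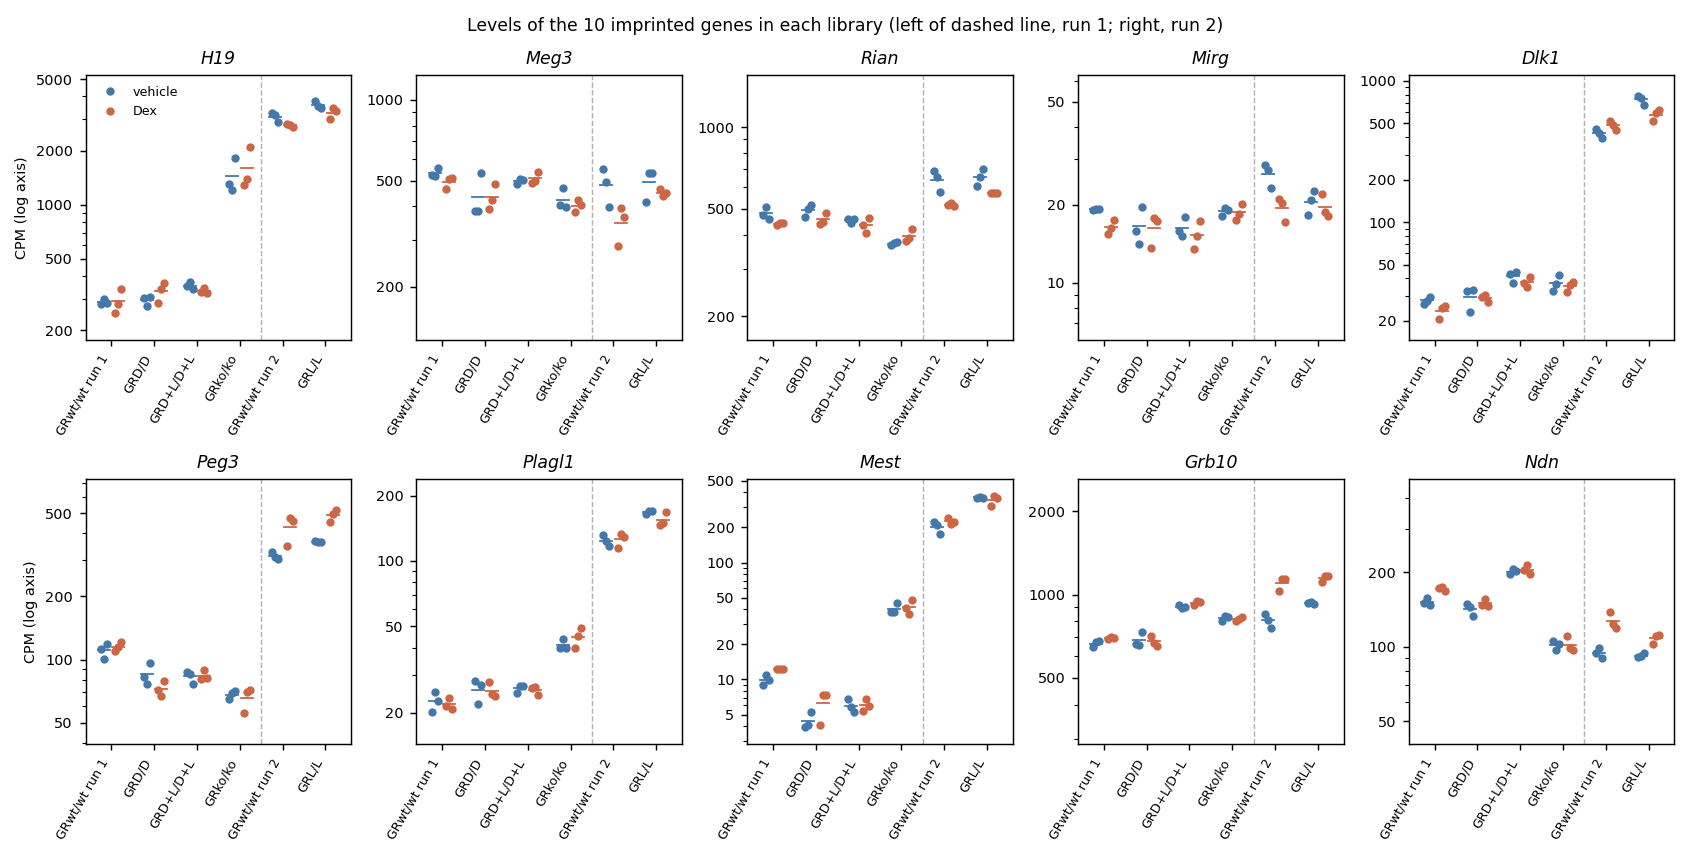
CPM of each gene in each library on a log axis, with vehicle in blue, Dex in orange and a short line at the mean of 3 libraries. H19, Dlk1, Peg3, Plagl1 and Mest stand higher in both groups of run 2 (right of the dashed line) than in any group of run 1, whereas the Meg3 libraries lie between 284 and 556 CPM in all groups.

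Mest showed the widest range. Its vehicle level was 8.95, 11.0 and 9.86 CPM in the 3 GRwt/wt libraries of run 1 and 223, 208 and 176 CPM in those of run 2. The groups did not come near each other, and the fitted difference was 4.27 ± 0.08 (SE) on the log2 scale, or 19.2-fold (edgeR, adjusted p = 1.16e-31). Copg2, whose exons it shares in part, averaged 35.2 and 38.0 CPM in the same groups, a log2 difference of 0.12 ± 0.05. Dlk1 stood at 26.5, 27.7 and 29.6 CPM in run 1 and at 460, 430 and 396 CPM in run 2, again with no overlap. Fitted over vehicle and Dex libraries together, the difference was 17.8-fold (log2 4.15 ± 0.08, adjusted p = 4.04e-31). H19 had 280, 298 and 284 CPM in run 1 and 3220, 3160 and 2900 CPM in run 2. Its fitted difference was 10.1-fold (log2 3.34 ± 0.10, adjusted p = 1.42e-26). Per kilobase of exon, H19 went from the highest of the 10 genes in run 1 (117 CPM per kb, followed by Grb10 with 73.2) to a level of 1260 CPM per kb in run 2, and Mest from the lowest (2.52) to 51.2.

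Plagl1 and Peg3 followed the same order with smaller ratios. Plagl1 had 20.3, 25.0 and 22.6 CPM in vehicle in run 1 and 131, 124 and 117 CPM in run 2 (fitted 5.60-fold, log2 2.48 ± 0.06, adjusted p = 2.57e-29). For Peg3 the values were 112, 101 and 119 CPM against 326, 308 and 301 CPM (fitted 3.24-fold, log2 1.70 ± 0.07, adjusted p = 1.19e-21). Neither gene overlapped between the runs. The other 5 genes differed by less than 1.5-fold, with Grb10 at 0.47 ± 0.05, Mirg at 0.35 ± 0.08, Rian at 0.32 ± 0.04, Meg3 at -0.32 ± 0.08 and Ndn at -0.56 ± 0.04 on the log2 scale. Within the chromosome 12 cluster, therefore, the paternally expressed Dlk1 stood 17.8-fold higher in run 2 by the fitted difference. The maternally expressed Meg3, Rian and Mirg differed by no more than 1.28-fold. With the vehicle libraries alone, an analysis chosen after seeing the data, 9 of the 10 passed against 72.4% of all tested genes. Meg3 did not (-0.14 ± 0.11, adjusted p = 0.242).

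Other transcripts moved with the run. The summed level of 10 skeletal muscle genes was 677 to 782 CPM in vehicle-treated GRwt/wt of run 1 and 29.9 to 30.9 CPM in run 2. In run 1 almost all of it was Acta1, skeletal alpha-actin (718 CPM on average, 7.27 in run 2), and of the 7 muscle genes tested 3 were higher and 3 lower in run 2. The muscle determination factors Myod1 and Myf5, which open the muscle programme, stood near 0, since both had 0 counts in run 1 and at most 2 counts in run 2. The 8 cartilage genes summed to 19.6 to 21.1 CPM in run 1 and 66.9 to 81.2 CPM in run 2, led by Sox9, and the 10 macrophage genes, led by Lyz2, to 192 to 337 and 473 to 499 CPM. All 6 cartilage genes tested and 8 of 10 macrophage genes were higher in run 2. Of 10 proliferation genes, 7 were higher and 2 lower in run 2. The part of these, of embryo sex and of depth in the difference was not tested, and run, sex and culture cannot be told apart here.

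Genes listed as flanking the imprinted loci are set here beside all tested genes. Of the latter, 80.5% differed between the runs and 44.6% were higher in run 2. The distance of the listed genes from the loci, and any imprinting of their own, was not examined. Of 7 listed for the Dlk1-Meg3 cluster, 2 were higher and 2 lower in run 2, with Begain at 1.01 ± 0.11 and Dync1h1 at -1.51 ± 0.08. Of 4 neighbours of H19, 1 was higher (Lsp1, 1.09 ± 0.05) and 2 lower. Of 7 neighbours of the remaining loci, 5 were higher and 2 lower, from -1.92 ± 0.13 for Cobl to 2.09 ± 0.12 for Ddc, both next to Grb10. The median differences of the 3 lists were -0.04, -0.12 and 0.32 on the log2 scale, against 0.09 for all tested genes.

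Across the 6 vehicle groups, the same 5 genes had GRL/L highest and GRwt/wt of run 2 next. H19 averaged 288 CPM in GRwt/wt of run 1, 295 in GRD/D, 355 in GRD+L/D+L, 1450 in GRko/ko, 3100 in GRwt/wt of run 2 and 3580 in GRL/L. Only the lowest pair overlapped. Mest averaged 4.42 CPM in GRD/D, 5.92 in GRD+L/D+L, 9.93 in GRwt/wt of run 1, 40.4 in GRko/ko, 202 in GRwt/wt of run 2 and 360 in GRL/L, an 81.4-fold range in which again only the lowest pair overlapped. For Dlk1 the 4 groups of run 1 overlapped from each to the next (27.9 to 41.3 CPM), and GRwt/wt of run 2 and GRL/L stood apart at 429 and 741 CPM. Plagl1 overlapped among GRwt/wt of run 1, GRD/D and GRD+L/D+L (22.7 to 26.0 CPM), with GRko/ko at 41.2, GRwt/wt of run 2 at 124 and GRL/L at 168. Peg3 differed in having GRko/ko lowest (68.0 CPM), below GRD+L/D+L and GRD/D, which overlapped (83.2 and 85.0), GRwt/wt of run 1 (111), GRwt/wt of run 2 (312) and GRL/L (365).

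The other 5 genes held narrower orders. Meg3 ranged only 1.25-fold, from 424 CPM in GRko/ko to 532 in GRwt/wt of run 1, and each group overlapped the next except at the top. Mirg ranged 1.61-fold, and only GRwt/wt of run 2 (26.3 CPM) stood clear of its neighbour. Rian was lowest in GRko/ko (372 CPM) and highest in GRwt/wt of run 2 and GRL/L (638 and 652 CPM), which overlapped. Grb10 ranged 1.40-fold, with GRwt/wt of run 1 and GRD/D overlapping (665 and 684 CPM), GRwt/wt of run 2 and GRko/ko overlapping (807 and 823), and GRD+L/D+L (905) and GRL/L (934) apart. Ndn had another order, with GRL/L, GRwt/wt of run 2 and GRko/ko lowest and overlapping from each to the next (92.1, 94.7 and 102 CPM), GRD/D and GRwt/wt of run 1 above (142 and 152) and GRD+L/D+L highest (201).

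The next comparisons asked whether the receptor genotype changed the vehicle level beside GRwt/wt, with the run as a term in the model. They share the GRwt/wt libraries. In GRko/ko, 9 of the 10 genes differed from GRwt/wt, 5 higher and 4 lower, where 48.4% of all tested genes differed. Of these, 2 were at least 2-fold higher, H19 and Mest, against 9.99% of all tested genes. The median log2 difference of the 10 was 0.16, against 0.016 for all tested genes.

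**Figure D2:**
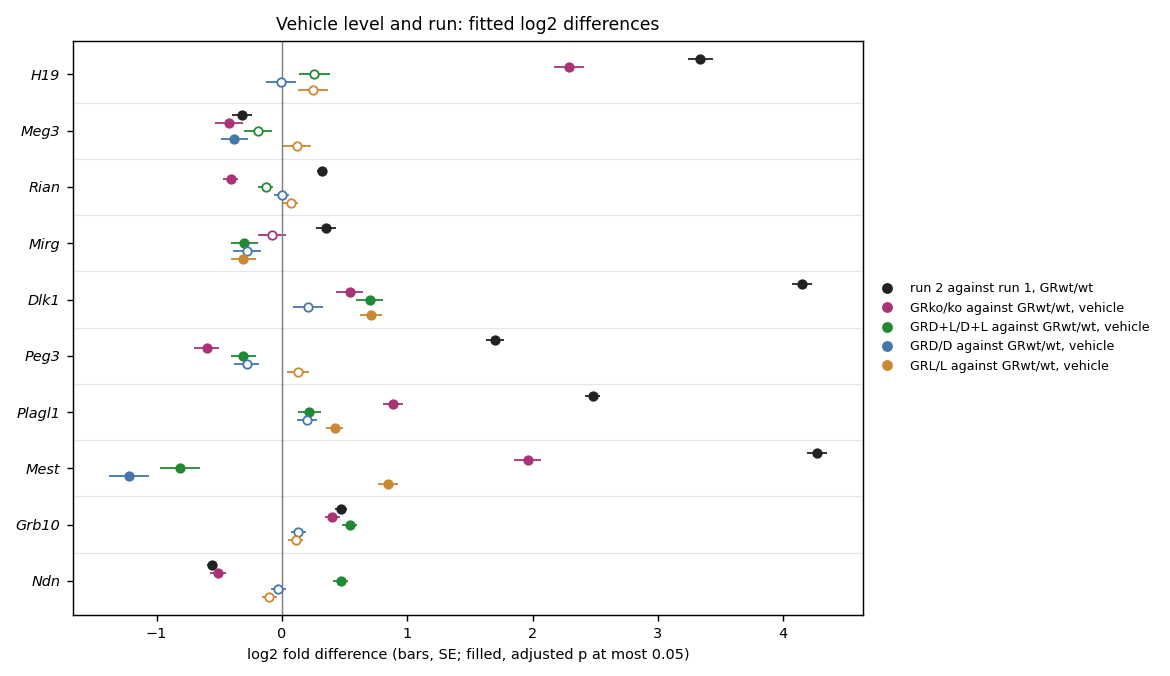
Fitted log2 differences of the vehicle level for each mutant against GRwt/wt, and of run 2 against run 1 in GRwt/wt (black), with SE bars. Filled points passed the adjusted p of 0.05. The run difference reaches 4.27 (Mest) and exceeds every genotype difference for H19, Dlk1, Peg3, Plagl1 and Mest.

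H19 in GRko/ko was 1300, 1210 and 1830 CPM, above the 280 to 298 CPM of GRwt/wt in the same run, 4.87-fold (log2 2.29 ± 0.12, adjusted p = 1.53e-18). Mest was 37.9, 37.6 and 45.5 CPM against 8.95 to 11.0, 3.89-fold higher (log2 1.96 ± 0.11, adjusted p = 2.62e-17). Library 3 was the highest of the 3 for both genes, in vehicle and, by number, also after Dex, at 2100 CPM for H19 and 47.9 CPM for Mest. Plagl1 was 39.9, 43.8 and 39.8 CPM against 20.3 to 25.0 (log2 0.89 ± 0.08, adjusted p = 8.23e-12), with no overlap. Dlk1 (0.54 ± 0.11) and Grb10 (0.40 ± 0.06) were also higher. Peg3 went the other way, at 64.5, 69.2 and 70.4 CPM against 101 to 119 (log2 -0.60 ± 0.10, adjusted p = 4.57e-06), as did Ndn at 105, 97.4 and 103 CPM against 148 to 157 (-0.51 ± 0.06, adjusted p = 2.11e-09). Rian (-0.41 ± 0.06) and Meg3 (-0.42 ± 0.11) were lower too, and Mirg was at -0.08 ± 0.11 (adjusted p = 0.556).

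The GRko/ko cultures differed from the others of run 1 in more than the receptor. Their 10 macrophage genes summed to 2870 to 3190 CPM, against 192 to 337 in GRwt/wt, 693 to 762 in GRD/D and 32.8 to 40.9 in GRD+L/D+L. Their 8 cartilage genes summed to 244, 181 and 562 CPM in vehicle and 184, 221 and 182 CPM after Dex, mostly Col2a1, against at most 31.0 CPM in the other run 1 groups. Of 7 skeletal muscle genes tested, 4 were at least 2-fold higher and 1 lower than in GRwt/wt. The summed muscle list, mostly Acta1, was lower (415 to 461 against 677 to 782 CPM), and of 10 proliferation genes 6 were higher and 3 lower. By the markers above, GRko/ko and GRD+L/D+L cultures were male and GRwt/wt of run 1 and GRD/D female. The part of these and of strain in the difference was not tested.

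The point mutants differed less. In GRD/D, 2 of 10 genes were lower and 0 higher than in GRwt/wt, where 12.6% of all tested genes differed. The medians were -0.02 for the 10 and 0.013 for all tested genes. Mest was 3.95, 4.06 and 5.25 CPM against 8.95 to 11.0 in GRwt/wt of run 1, with no overlap (log2 -1.22 ± 0.16, adjusted p = 9.41e-07). Meg3 was 383, 386 and 534 CPM against 518 to 556, which overlap (-0.38 ± 0.11, adjusted p = 0.0203). The Meg3 call was lost without GRD/D vehicle library 1 or 2 (adjusted p = 0.134 and 0.161) and against GRwt/wt of run 1 alone (log2 -0.29 ± 0.11, adjusted p = 0.0976). Peg3 was 82.5, 76.1 and 96.3 CPM against 112, 101 and 119 CPM, with no overlap, and did not pass (-0.28 ± 0.10, adjusted p = 0.0583). It passed against GRwt/wt of run 1 alone (-0.38 ± 0.09, 0.00508) and in DESeq2 (0.0322). Without vehicle library 3, 4 of 10 genes passed, and without library 1, 1 did. Of 10 macrophage genes, 9 were at least 2-fold higher in GRD/D (693 to 762 CPM in sum against 192 to 337) and 5 of 10 proliferation genes were higher, and the part of these was not tested.

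In GRD+L/D+L, 7 of 10 genes passed, 4 higher and 3 lower, against 33.3% of all tested genes, with medians of 0.04 and -0.007. Grb10 was 917, 898 and 899 CPM against 645 to 678 in GRwt/wt of run 1 (fitted log2 0.54 ± 0.06, adjusted p = 4.11e-09). Ndn was 196, 206 and 202 CPM against 148 to 157 (fitted 0.47 ± 0.06, adjusted p = 2.3e-08). Both fitted values also draw on the Dex and run 2 libraries of GRwt/wt. Neither gene overlapped. Dlk1 was higher (0.70 ± 0.11) and Mest lower (-0.81 ± 0.16), both past the threshold also against GRwt/wt of run 1 alone. Plagl1 (0.22 ± 0.09) and Mirg (-0.30 ± 0.11) passed at an adjusted p of 0.0433 and 0.038 and did not pass against GRwt/wt of run 1 alone (0.112 and 0.129). Each of these 2 calls and that of Peg3 (-0.31 ± 0.10, adjusted p = 0.0148) was lost on leaving out 1 library. For Peg3 the libraries were vehicle library 3 of GRD+L/D+L (adjusted p = 0.0923) and vehicle library 3 of GRwt/wt (0.0715). In the same cultures 9 of 10 proliferation genes were lower (463 to 468 CPM in sum against 654 to 660), as were 6 of 10 fibroblast genes, and 9 of 10 macrophage genes were at least 2-fold lower. Of 6 cartilage genes tested, 2 were higher and 1 lower, and of 7 muscle genes 1 was higher and 1 lower. The part of these in the differences was not tested.

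In GRL/L, whose values are set here beside GRwt/wt of the same run (run 2), 4 of 10 genes passed, 3 higher and 1 lower, against 12.6% of all tested genes, with medians of 0.13 and 0.006. Mest was 354, 367 and 359 CPM against 223, 208 and 176 CPM (log2 0.85 ± 0.08, adjusted p = 5.83e-09). Dlk1 was 786, 757 and 680 CPM against 460, 430 and 396 CPM (0.71 ± 0.09, adjusted p = 8.61e-07), and Plagl1 was 164, 169 and 169 CPM against 131, 124 and 117 CPM (0.42 ± 0.07, adjusted p = 1.73e-05). All 3 genes stood clear of GRwt/wt, and both groups were male. Mirg was 18.3, 20.8 and 22.6 CPM against 28.4, 27.2 and 23.3 CPM (-0.31 ± 0.10, adjusted p = 0.0256), a call lost without vehicle library 1 or 2 of GRL/L (0.187 and 0.0659) or 4 or 5 of GRwt/wt (0.099 and 0.0776). Grb10 was 936, 939 and 928 CPM against 852, 812 and 758 CPM, with no overlap, and did not pass (0.11 ± 0.06, adjusted p = 0.248), but did against GRwt/wt of run 2 alone (0.21 ± 0.04, 0.000871). Of the marker lists, 9 of 10 macrophage genes and 3 of 6 cartilage genes were higher in GRL/L (sums of 846 to 1010 and 113 to 115 CPM), and 7 of 10 proliferation genes (684 to 701 CPM against 792 to 811) and 3 of 7 skeletal muscle genes were lower. The part of these was not tested.

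Between mutants of run 1, GRD+L/D+L differed from GRD/D for 3 of 10 genes, all higher, against 36% of all tested genes. These were Ndn (log2 0.50 ± 0.06), Dlk1 (0.49 ± 0.12) and Grb10 (0.40 ± 0.06). GRko/ko differed from GRD/D for 8 genes, against 47.3% of all tested genes, most for Mest (3.18 ± 0.15, 9.06-fold). It differed from GRD+L/D+L for 6 genes, against 50.2%, with H19 4.07-fold higher (2.03 ± 0.13), Mest 6.80-fold higher (2.77 ± 0.14) and Ndn lower (-0.98 ± 0.06).

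In GRwt/wt, with 6 libraries of each treatment, 7 of 10 genes passed, 4 higher and 3 lower after Dex, against 33.6% of all tested genes. None changed 2-fold, unlike the differences of H19, Dlk1, Peg3, Plagl1 and Mest between the runs, whereas for Meg3 and Mirg the Dex and run differences were of like size (-0.29 and -0.32, -0.34 and 0.35). The median log2 change of the 10 was 0.01, against -0.007 for all tested genes. Ndn (log2 0.30 ± 0.04, adjusted p = 5.63e-07), Peg3 (0.27 ± 0.07, 0.0028), Grb10 (0.26 ± 0.05, 1.9e-05) and Mest (0.20 ± 0.08, 0.0374) rose. The maternally expressed RNAs of the chromosome 12 cluster fell, with Mirg at -0.34 ± 0.08 (adjusted p = 0.000611), Meg3 at -0.29 ± 0.08 (0.00715) and Rian at -0.21 ± 0.04 (0.000108). A fall was not confined to the maternal copy. Dio3, a paternally expressed gene of the same cluster, averaged 2.41 CPM in vehicle and 1.09 after Dex in run 2. In run 1 it averaged 0.177 and 0.0826 CPM. H19 (-0.08 ± 0.09), Dlk1 (0.03 ± 0.08) and Plagl1 (0.00 ± 0.06) did not pass. The Mest call was lost on leaving out any of 7 single libraries (adjusted p up to 0.167, without vehicle library 6 of run 2).

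**Figure D3:**
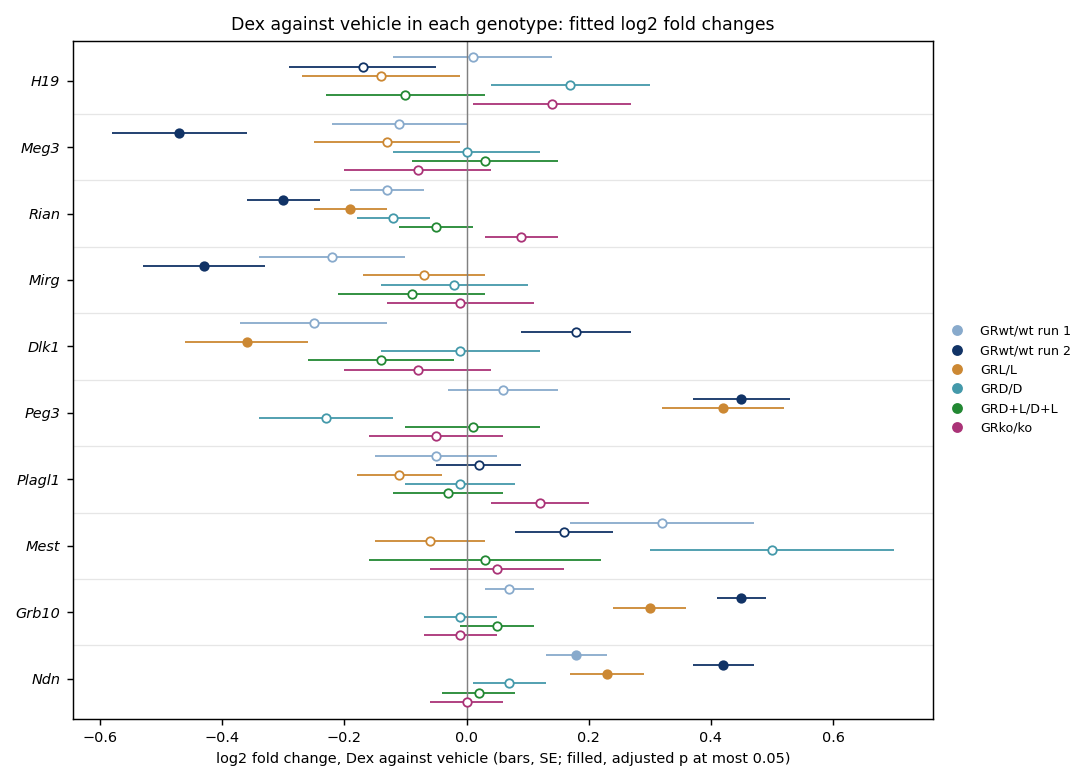
Fitted log2 fold changes of Dex against vehicle with SE bars, for GRwt/wt of each run and for each mutant, filled where the adjusted p was at most 0.05. The changes of Meg3, Rian, Mirg, Peg3, Grb10 and Ndn are larger in GRwt/wt of run 2 (dark blue) than in run 1 (light blue), and all points of GRD/D, GRD+L/D+L and GRko/ko are open.

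Taken by run, an analysis chosen after seeing the data, more of the 10 genes passed in run 2 than in run 1. In run 1, 1 of 10 genes passed, against 13.9% of all tested genes, and in run 2, 6 of 10, against 31.6%. Grb10 in run 2 was 852, 812 and 758 CPM in vehicle and 1030, 1140 and 1140 CPM after Dex (log2 0.45 ± 0.04, adjusted p = 1.48e-10). In run 1 it was 645, 673 and 678 CPM and then 692, 703 and 695 CPM, which also do not overlap but differed by 0.07 ± 0.04 (adjusted p = 0.395). Ndn went from 94.7, 99.0 and 90.4 to 138, 124 and 119 CPM in run 2 (0.42 ± 0.05, adjusted p = 3.33e-08) and from 150, 157 and 148 to 172, 174 and 168 CPM in run 1 (0.18 ± 0.05, adjusted p = 0.0198). Ndn, a suppressor of growth, was thus the 1 member to pass in both runs, and its run 1 call was lost without Dex library 1 or 2 or vehicle library 1 or 3 (adjusted p = 0.0582 to 0.0763). Peg3 went from 326, 308 and 301 to 350, 472 and 460 CPM in run 2 (0.45 ± 0.08, adjusted p = 4.55e-05), with library 4 the lowest after Dex. In run 1 it was 112, 101 and 119 CPM and then 110, 115 and 121 CPM, overlapping. Mest changed by 0.32 ± 0.15 in run 1 and 0.16 ± 0.08 in run 2 and Dlk1 by -0.25 ± 0.12 and 0.18 ± 0.09, and neither passed in either run.

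The RNAs of the cluster fell in run 2, where Meg3 was 554, 492 and 398 CPM in vehicle and 284, 396 and 364 CPM after Dex (-0.47 ± 0.11, adjusted p = 0.00104). Rian was 686, 654 and 575 CPM and then 517, 526 and 510 CPM (-0.30 ± 0.06, 3.93e-05), and Mirg was 28.4, 27.2 and 23.3 CPM and then 21.1, 20.3 and 17.1 CPM (-0.43 ± 0.10, 0.000679). None of the 3 genes overlapped between treatments in run 2. Without Dex library 4, which stood apart from 5 and 6 and had the lowest Meg3, the changes were -0.34 ± 0.11 for Meg3 (adjusted p = 0.0216, with 398 CPM as the lowest vehicle value and 396 as the highest after Dex), -0.30 ± 0.06 for Rian and -0.49 ± 0.11 for Mirg. Without it Peg3 was at 0.58 ± 0.08, Grb10 at 0.50 ± 0.04 and Ndn at 0.36 ± 0.05, and these 6 genes still passed. In run 1 the changes of Meg3, Rian and Mirg were -0.11 ± 0.11, -0.13 ± 0.06 and -0.22 ± 0.12 and did not pass. The difference between the runs in the Dex response passed for 3 of 10 genes, against 7.09% of all tested genes. These were Grb10 (0.38 ± 0.06, adjusted p = 3.77e-05), Ndn (0.25 ± 0.07, 0.0344) and Peg3 (0.40 ± 0.12, 0.0441). It did not pass for Meg3, Rian or Mirg (adjusted p = 0.2, 0.212 and 0.531). Leaving out each of the 12 GRwt/wt libraries in turn, the call was lost in 0 cases for Grb10, 7 for Ndn (adjusted p up to 0.134) and 8 for Peg3 (up to 0.139). Without vehicle library 1 or Dex library 1 of run 1, 1 gene passed, Grb10.

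In GRL/L, 5 of 10 genes passed for Dex, 3 higher and 2 lower, against 17.7% of all tested genes, with medians of -0.09 and -0.009. Peg3 was 367, 365 and 363 CPM in vehicle and 454, 493 and 516 CPM after Dex (log2 0.42 ± 0.10, adjusted p = 0.00148). Grb10 rose from 936, 939 and 928 to 1110, 1170 and 1170 CPM (0.30 ± 0.06, 0.000661) and Ndn from 90.5, 91.4 and 94.4 to 103, 110 and 111 CPM (0.23 ± 0.06, 0.00524). Dlk1 fell from 786, 757 and 680 to 519, 594 and 618 CPM (-0.36 ± 0.10, 0.0065) and Rian from 604, 654 and 698 to 572, 570 and 571 CPM (-0.19 ± 0.06, 0.02). All 5 genes separated the treatments. The Dlk1 call was lost without Dex library 1 (adjusted p = 0.0641), and that of Rian without vehicle library 2 or 3 or Dex library 2 or 3 (0.0504 to 0.157).

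In GRD/D, edgeR called 0 of 10 genes for Dex, with 2 at an unadjusted p under 0.05 and 1 by DESeq2, against 10.1% of all tested genes. Mest had the largest value, from 3.95, 4.06 and 5.25 CPM to 4.09, 7.38 and 7.43 CPM (log2 0.50 ± 0.20, adjusted p = 0.101, 0.0205 by DESeq2). Without Dex library 1, it passed in edgeR (0.74, adjusted p = 0.00943). In GRD+L/D+L, edgeR and DESeq2 called 0 of 10, with 0 at an unadjusted p under 0.05, against 4% of all tested genes. In GRko/ko the counts were also 0, 0 and 0, against 0% of all tested genes, where edgeR called 0, DESeq2 called 1 and 787 of 15489 had an unadjusted p under 0.05. Changes in GRko/ko ran from -0.08 (Meg3, Dlk1) to 0.14 (H19).

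Tests of the difference in Dex response from GRwt/wt passed for 2 of 10 genes in GRD/D (7.13% of all tested genes), 0 in GRL/L (0.742%), 1 in GRD+L/D+L (7.92%) and 3 in GRko/ko (14.9%). In GRL/L, 3 genes had an unadjusted p under 0.05 and DESeq2 called 0. For GRD/D the differences were -0.50 ± 0.13 for Peg3 (adjusted p = 0.0101) and -0.28 ± 0.08 for Grb10 (0.0242). For GRD+L/D+L it was -0.28 ± 0.07 for Ndn (0.0131). For GRko/ko they were -0.30 ± 0.08 for Ndn (0.00447), -0.27 ± 0.08 for Grb10 (0.0158) and 0.31 ± 0.07 for Rian (0.00296). These values set run 1 mutants against a GRwt/wt response drawn from both runs. Against GRwt/wt of run 1 alone, 0 of the 10 genes passed for these 3 genotypes. There the adjusted p was 0.361 for Peg3 and 0.739 for Grb10 in GRD/D, 0.4 for Ndn in GRD+L/D+L, and 0.165, 0.558 and 0.0868 for Ndn, Grb10 and Rian in GRko/ko. For GRL/L against GRwt/wt of run 2 alone, 1 gene passed, Dlk1, which fell in GRL/L (-0.36 ± 0.10) and was at 0.18 ± 0.09 in GRwt/wt of run 2 (difference -0.54, adjusted p = 0.00871). Without Dex library 2 of GRD/D, 0 genes passed for that genotype, and 0 passed for GRD+L/D+L without its Dex library 3. The 2 GRD/D calls also fell to 1 without its Dex library 3 or without vehicle library 5 of GRwt/wt, and without vehicle library 3 of GRwt/wt the GRD+L/D+L count was 2.

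A further list of 29 imprinted genes, of which 25 were tested, gave the surroundings of these results. It too was chosen with earlier results of these data known. Between the runs all 25 differed, 17 higher and 8 lower in run 2, against 80.5% of all tested genes, of which 44.6% were higher. The median log2 difference was 0.75, against 0.09. Igf2, the growth factor gene beside H19, is transcribed from the other parental copy. It averaged 4.25 CPM in vehicle-treated GRwt/wt of run 1 and 28.2 in run 2 (fitted 5.65-fold, log2 2.50 ± 0.12). It averaged 52.3 in GRko/ko (fitted 10.8-fold above GRwt/wt, 3.44 ± 0.15) and 48.2 in GRL/L. Like H19, it was thus highest in GRko/ko and the 2 groups of run 2. Slc38a4, an amino acid transporter gene, averaged 11.0 CPM in GRwt/wt of run 1, 90.2 in run 2 and 61.0 in GRko/ko, with 26.2 CPM in GRD+L/D+L. Dio3 (log2 3.69 ± 0.32) and Rtl1 (2.68 ± 0.50), the other paternally expressed genes of the Dlk1 cluster, were also higher in run 2 than in run 1, from below 1 CPM on average in run 1. Rtl1 was below 1 CPM in GRwt/wt of run 2 as well (0.593 in vehicle and 0.438 after Dex), so its difference lies between low values. Zim1, next to Peg3, was higher in run 2 (2.72 ± 0.13). Nnat, a small membrane protein gene, went the other way, with 20.5 CPM in run 1, 2.69 in run 2 and 8.38 in GRko/ko.

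**Figure D4:**
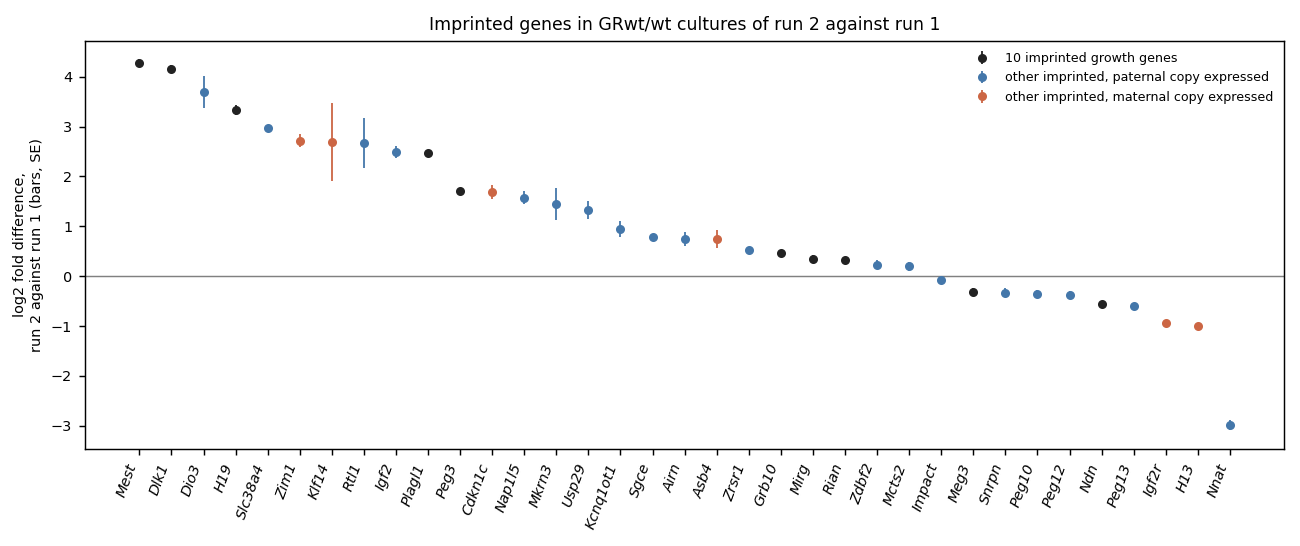
Fitted log2 difference of run 2 against run 1 in GRwt/wt with SE bars, for the 10 imprinted growth genes (black) and the 25 other imprinted genes tested, ordered by value. Mest and Dlk1 lead, Nnat is lowest at -2.99, and genes expressed from either parental copy lie on both sides of 0.

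After Dex, 11 of the 25 passed in GRwt/wt (against 33.6% of all tested genes), 3 higher and 8 lower, 11 in GRL/L (17.7%) and 4 in GRD/D (10.1%). In GRD+L/D+L and GRko/ko edgeR and DESeq2 called 0, with 6 and 1 at an unadjusted p under 0.05. Cdkn1c, which encodes the cyclin-dependent kinase inhibitor p57, had the largest change in GRwt/wt over both runs (log2 1.52 ± 0.14). It rose from 41.0 to 69.5 CPM on average in GRwt/wt of run 1 (log2 0.77 ± 0.11) and from 79.5 to 340 CPM in run 2 (2.09 ± 0.10). The difference between runs was 1.33 ± 0.15 (adjusted p = 5.32e-08). It also rose in GRD/D (1.04 ± 0.20) and GRL/L (1.09 ± 0.18), from 45.0 to 92.4 and from 144 to 307 CPM. Nap1l5 fell in GRwt/wt (-0.94 ± 0.12), GRD/D (-1.03 ± 0.21) and GRL/L (-0.72 ± 0.12). The changes of Cdkn1c and Nap1l5 exceeded those of any of the 10 growth genes in the same genotypes, which stayed within 0.50 of 0 on the log2 scale. Zim1 averaged 20.7 CPM in vehicle and 42.5 after Dex in GRwt/wt of run 2, and 27.8 and 50.9 in GRL/L. In GRwt/wt of run 1 it averaged 4.77 and 4.55 CPM. Dio3 averaged 2.51 CPM in vehicle and 1.54 after Dex in GRL/L.

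Over the 12 group means of log2 CPM, each gene was compared with 11781 others of a mean count of at least 50. These correlations share libraries and the step between runs, and are given as a description. Highest for H19 were Eln (elastin, r = 0.998), Gpc3 (glypican-3, 0.997) and Zfp286 (0.996). Mest was nearest to Msx1 (a homeobox factor, 0.996), Efna1 (an ephrin, 0.995) and Tm2d3 (0.989), and Dlk1 to Armh4 (0.994), Agtr2 (an angiotensin receptor, 0.993) and Wdr48 (0.992). Plagl1 was nearest to Clec3b (0.995), C1s1 (0.994) and Phyh (0.993), and Peg3 to Fgfr2 (0.993), Slc37a3 (0.992) and Lpar4 (0.988). The genes with narrow ranges had lower values, with Inpp5e (0.917), Bmpr2 (0.856) and Rora (0.846) nearest to Meg3. Rian was nearest to Manea (0.980), Gprasp1 (0.977) and Zfp974 (0.977), Mirg to Zmym3 (0.928), Qrsl1 (0.920) and Cntrob (0.917), Grb10 to Mylk (0.972), Oplah (0.970) and Prps2 (0.964), and Ndn to Ndufb10 (0.978), Flot1 (0.978) and Neurl2 (0.968). Among the 10, H19, Dlk1, Peg3, Plagl1 and Mest had r of 0.74 to 0.97 with each other, whereas Meg3 and Ndn had negative values with all 5, from -0.85 (H19 and Ndn) to -0.15 (Meg3 and Peg3).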

How the data were processed

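The authors prepared TruSeq libraries from total RNA of MEFs, mapped the reads to mm10 with HISAT2 2.1.0 and, for each gene, had featureCounts 2.0.0 count those with a unique position. The deposited values are whole-number counts without normalization, 1 column per library, and all columns were used. The annotation release and strand setting are not given in the sources used here. Groups and replicate numbers were taken from the sample titles, which name no run. The run follows the study's account that GRL/L was profiled with GRwt/wt in a separate part. GRwt/wt libraries with the higher replicate numbers were placed in the run of GRL/L.

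Counts were analysed in R 4.3.3 with edgeR 4.0.16 (limma 3.58.1). TMM factors scaled the library sizes, and filterByExpr removed low genes given the 10 genotype-by-treatment conditions. The model held these conditions and the run, after the formula that the authors used in DESeq2, and was tested by quasi-likelihood F tests. P-values were adjusted by Benjamini-Hochberg over 15489 genes holding 99.93% of counts. Each SE is the absolute log2 fold change over the square root of F and is approximate. The GRwt/wt libraries of each run were also compared in a model of 12 separate groups. The 10 genes and the other gene lists were chosen with earlier results of these data known. Named genes were all 10 members, the other imprinted genes that were called (up to 4 per comparison with the largest change), the 3 most correlated genes per member, and Nr3c1. Markers named led their list in CPM, and the flanking genes, Myod1 and Myf5 were named after their values were seen. Lists of endothelial, epithelial and neural genes summed to at most 16.7, 24.1 and 59.5 CPM in vehicle libraries and are not described further.

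Alternatives were DESeq2 1.42.0, DESeq2 size factors, no filter, at least 10 counts in every library, a replicate block, no GRko/ko libraries, only the genotypes compared, the 12 groups, an added log2 limit of 1, and leaving out each library. The procedure was tested on simulated counts with 1 spread for all genes and no difference between runs. It recovered 92.8% of 97 genes changed by Dex in GRwt/wt and 100% of 99 changed in GRL/L. Of the calls, 4.26% and 3.88% were false. The simulation is simpler than these data, where 80.5% of tested genes differed between the runs. No pair of libraries in a group agreed within sampling noise. Gene positions are from GENCODE M21 and sequences from RefSeq tables. Plots used matplotlib 3.10.9 (Python 3.11.15).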

Additional observations from a re-analysis of the deposited data

Results flagged for a closer look

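Differences in the response to Dex between genotypes, or between the runs of GRwt/wt, passed the test of the difference itself for 9 gene and comparison pairs, which is what brings them here. They were Peg3 (-0.50 ± 0.13, adjusted p = 0.0101) and Grb10 (-0.28 ± 0.08, 0.0242) in GRD/D against GRwt/wt, Ndn in GRD+L/D+L against GRwt/wt (-0.28 ± 0.07, 0.0131), and Rian (0.31 ± 0.07, 0.00296), Grb10 (-0.27 ± 0.08, 0.0158) and Ndn (-0.30 ± 0.08, 0.00447) in GRko/ko against GRwt/wt, all on the log2 scale in edgeR. Against GRwt/wt of their own run alone, 0 of these 6 passed (adjusted p = 0.361, 0.739, 0.4, 0.0868, 0.558 and 0.165 in the same order). Between run 2 and run 1 of GRwt/wt they were Peg3 (0.40 ± 0.12, 0.0441), Grb10 (0.38 ± 0.06, 3.77e-05) and Ndn (0.25 ± 0.07, 0.0344). Of these, Grb10 passed without any 1 of the 12 GRwt/wt libraries, whereas Ndn was lost without 7 of them and Peg3 without 8. The genes that differed between the runs are also those that differed between mutants and GRwt/wt, apart from Rian, and the comparisons share the GRwt/wt libraries.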

How the results depend on the processing

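Of 3510 values of single genes under the alternatives, 3369 kept their direction and their side of the threshold, 63 no longer passed, 78 newly passed and 0 called values turned sign, with 158 changes of sign among values called in neither. Counts of the 10 genes called (main value first) moved by over 1.5 times as follows, and the cause was not tested except where fewer libraries entered. With an added absolute log2 change of at least 1, the vehicle counts were 2 to 1 in GRD/D, 4 to 0 in GRL/L, 7 to 0 in GRD+L/D+L, 9 to 2 in GRko/ko, 3 to 0 for GRD+L/D+L against GRD/D, 8 to 2 for GRko/ko against GRD/D and 6 to 2 against GRD+L/D+L. The run count went from 10 to 5, the Dex counts from 7 to 0 in GRwt/wt and from 5 to 0 in GRL/L, and the response differences to 0 in GRD/D, GRD+L/D+L and GRko/ko. Without the filter on low counts, the counts were 5 (GRD/D vehicle), 6 (GRD+L/D+L against GRD/D), 3 (GRD/D Dex) and, for the response differences, 5 (GRD/D), 2 (GRL/L), 4 (GRD+L/D+L) and 7 (GRko/ko). With only the genotypes compared they were 1 (GRD/D vehicle), 1 (GRD+L/D+L Dex) and 0 (GRD/D response). With 12 separate groups the response differences were 0 in GRD/D, GRD+L/D+L and GRko/ko and 1 in GRL/L. DESeq2 gave 1 for GRD/D Dex.

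Replicate numbers showed no clear pairing of vehicle and Dex libraries. The correlation of their deviations was above 0.1 in 1 of 18 same-numbered pairs (-0.0787 to 0.116). Of 18 libraries, 7 correlated best with their own number, among them all those of GRD+L/D+L. Correlations this weak cannot show whether the numbers pair the libraries or not. With the replicate block, 1 gene passed for GRD/D Dex (0 without it) and 1 for the GRD/D response (2 without it), and no other count moved by over 1.5 times.

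Leaving out each library gave ranges for the vehicle counts of 1 to 4 (GRD/D), 3 to 4 (GRL/L), 5 to 7 (GRD+L/D+L), 9 to 9 (GRko/ko), 3 to 4 (GRD+L/D+L against GRD/D), 7 to 8 and 5 to 6 (GRko/ko against GRD/D and GRD+L/D+L), and 10 to 10 for the run. For Dex they were 6 to 7 (GRwt/wt), 0 to 1 (GRD/D), 4 to 5 (GRL/L) and 0 to 0 (GRD+L/D+L and GRko/ko), and for the response differences 0 to 3 (GRD/D), 0 to 0 (GRL/L), 0 to 2 (GRD+L/D+L) and 3 to 4 (GRko/ko). For GRwt/wt by run, chosen after seeing the data, they were 0 to 1 for Dex in run 1, 6 to 7 for Dex in run 2, 1 to 3 for the difference between them and 9 to 9 for the vehicle libraries. The p-values measure the spread between libraries of 1 group, and Mest, with 3.95 to 5.25 CPM in vehicle-treated GRD/D, had the fewest counts of the 10 genes.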
